A study of Sus scrofa with 16 samples.

Results

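The comparison set the colonic mucosa of the pig against its liver. Its members were all arrays of the colon and all arrays of the liver, 8 of each, which made 16 of the 16 samples of the series, and they were chosen by the tissue in the label alone. The animals were Duroc × Landrace × Large White barrows. They ate a corn and soybean diet that held purified corn starch (CS) or, in its place, raw potato starch (RPS), at 230 g/kg in the growing period and 280 g/kg in the finishing period, for 100 days, and were 170 days old at the end. Feed was withheld before slaughter, mucosa was scraped from the proximal colon, and each of the 4 groups (colon or liver, CS or RPS) held 4 animals with 1 array each. The labels name no genetic change and no drug in any group. RNA was read on a porcine oligonucleotide array in 1 colour, and every level given here is a log2 value of intensity after quantile normalization over the 16 arrays.

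The liver makes most proteins of the blood plasma, stores and releases glucose, turns ammonia into urea, makes bile acids and breaks down drugs, and nearly all of this is work of the hepatocyte. The mucosa of the proximal colon is a sheet of absorbing, mucus-secreting and hormone-secreting epithelium, renewed from dividing cells in its crypts, over a layer of connective tissue rich in lymphocytes. It takes up water, salt and the short-chain fatty acids that microbes make from starch that escaped digestion.

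A difference is the level in colonic mucosa less that in liver, in log2 units, taken within each diet and then averaged. A gene was called higher in a tissue when limma's test gave an adjusted p under 0.05, the difference was 2-fold or more, and both diets gave the same direction. The p-value measures how often a difference this large against the spread between arrays would be seen if the tissues did not differ, adjusted over all 43603 probes by the Benjamini-Hochberg method. Among the called genes of the 326 chosen for naming it ran from 4.25e-21 to 2.81e-02. A gene was called equal when the 95% interval of its difference and the differences of both diets lay within 1.5-fold and its signal stood well above background on each of the 16 arrays. Where the dimmer tissue was not well above background on all of its arrays, the fold is given as a lower bound. Levels of different probes are not comparable with each other, so each gene is read across arrays only.

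The arrays separated by tissue on the first principal component and by their correlations. The first principal component held 74.7% of the variance and split all 8 colon arrays from all 8 liver arrays. Correlations between arrays across probes were 0.96 to 0.987 within a tissue and diet and 0.956 to 0.987 within a tissue across diets, against 0.855 to 0.878 between tissues. More of the probes were well above background in colonic mucosa (64.9 to 72.2%, median 68.4%) than in liver (61.1 to 65.9%, median 63.9%, overlapping ranges, exact two-sided permutation p = 4.66e-04, 12870 splits). This test takes single arrays as its unit. Each group had its own slide and scan, so it cannot tell tissue from these. With diet means removed, the median SD between arrays of the 23415 probes that passed background everywhere was 0.356 in colonic mucosa and 0.243 in liver, and 73.2% of these probes had the larger SD in colonic mucosa. Without Colon_CS replicate 3 and Colon_RPS replicate 2 the median in colonic mucosa was 0.251 and the share 52.2%. With 6 liver arrays, 3 of each diet, in 16 choices, the liver median was 0.214 to 0.252 and the share 49.8 to 59.5%. The 2 colon arrays were left out because they stood apart, which by itself lowers the spread.

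A pair of colon arrays stood apart from the other 6, 1 of each diet. On the second principal component (6.14% of the variance) Colon_CS replicate 3 lay at -148.635 and Colon_RPS replicate 2 at -113.586, against 5.241 to 69.722 for the other colon arrays. They had the highest levels of B cell genes such as MS4A1 and low levels of several genes of the surface epithelium, so calls of the genes reported here that changed without them are named, and several differences that they moved are given both ways. Each slide held the 4 arrays of 1 group and each group had its own scan, so tissue, slide and scan cannot be told apart. The median signal before normalization was 30.6 to 37.88 on the liver arrays, 34.15 to 42.52 on the colon arrays of RPS pigs and 56.34 to 70.8 on those of CS pigs.

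**Figure D1:**
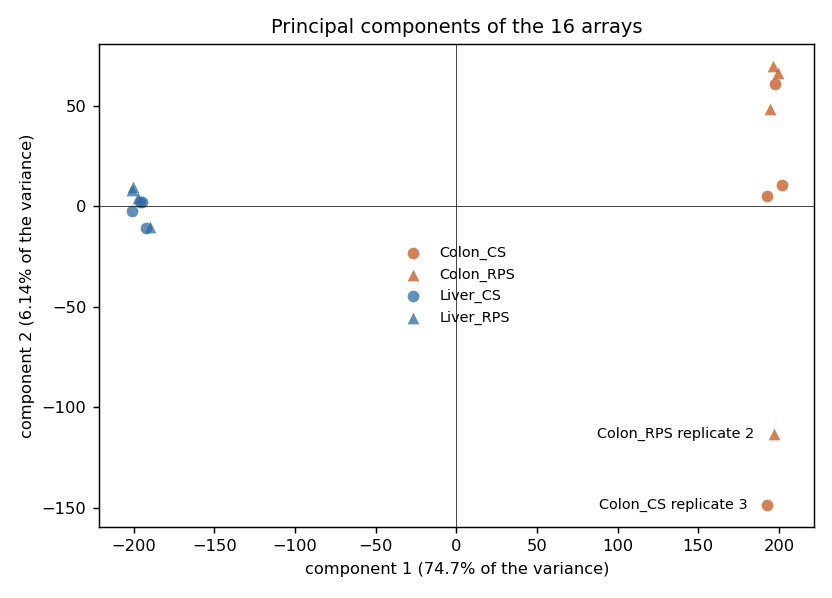
The 16 arrays on the first 2 principal components of the log2 intensities, by tissue (colour) and diet (symbol).

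Of 43603 probes, 6928 were called higher in colonic mucosa (15.9%), 5846 higher in liver (13.4%) and 5176 equal (11.9%). These counts were 3367, 2986 and 10205 with normexp background correction, and 1927 probes were equal with the thresholds met in each diet separately. Of the 6964 genes with a symbol, 1482 were higher in colonic mucosa (21.3%), 1166 higher in liver (16.7%) and 990 equal (14.2%), and the remaining 3326 were neither called nor equal. With normexp background correction 956 genes were higher in colonic mucosa and 788 in liver. The median difference of all genes was 0.12, or 0.05 with signals scaled to the 75th percentile and 0.04 with normexp background correction. Genes higher in colonic mucosa were more numerous, and the largest differences were more often toward liver. By the fitted differences, 733 genes were higher in colonic mucosa by 4-fold or more and 661 in liver, while at 32-fold or more there were 141 and 216. On all 8 arrays of 1 tissue and on no array of the other, 119 genes were well above background in colonic mucosa alone and 68 in liver alone. Genes chosen in 1 diet mostly had the same direction in the other. Of 3546 genes with an adjusted p under 0.05 in the CS arrays alone, 56 (1.58%) had the opposite sign in RPS pigs, and of 3324 chosen in the RPS arrays alone 28 (0.842%) had it in CS pigs, against 916 of all 6964 genes (13.2%).

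**Figure D2:**
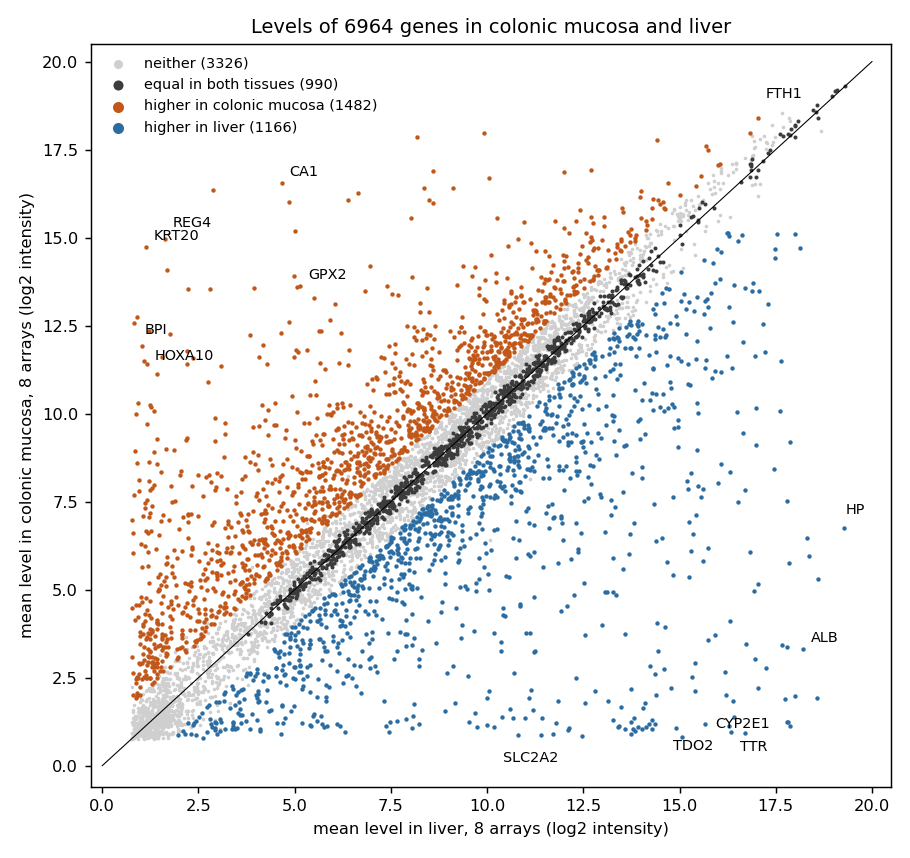
Mean level of each of 6964 genes in liver (horizontal, log2 intensity, 8 arrays) and colonic mucosa (vertical, log2 intensity, 8 arrays), coloured by call. The points far below the diagonal include TTR, ALB and CYP2E1, higher in liver, and those far above it include KRT20, REG4 and CA1, higher in colonic mucosa.

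The labels held in the markers of each tissue. All 7 hepatocyte markers on the array (of 8 written) were higher in liver, where their mean level per array was 17.74 to 17.94 against 4.67 to 5.78 in colonic mucosa. All 7 markers of colonic epithelium on the array (of 8 written) were higher in colonic mucosa, at 12.02 to 14.67 against 4.18 to 4.96. Neither pair of ranges overlapped. Markers of other cell types differed as well. The mean of MS4A1 and CD79A of B cells was 5.75 to 11.60 in colonic mucosa and 3.71 to 4.76 in liver, and all 3 T cell markers were higher in colonic mucosa (median of their mean 9.49 against 6.24). CD5L and CLEC4G of Kupffer and sinusoidal cells were higher in liver (mean 12.70 to 13.05 against 5.70 to 7.92), as was HBB of red cells (7.46 to 11.45 against 0.78 to 5.60). DES and CNN1 of smooth muscle had overlapping means of 10.53 to 11.25 in colonic mucosa and 9.75 to 10.89 in liver. The 3 markers of exocrine pancreas on the array, CPA1, CELA2A and PNLIP, were not called in either direction, at 3.98 to 5.45 in colonic mucosa and 4.59 to 5.92 in liver. The samples are mixtures of cell types, so fewer cells of a type and less RNA per cell cannot be told apart, and the part of each cell type in the results was not tested.

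The lists with the lowest medians held proteins that the liver secretes into the blood. All 18 plasma carriers and protease inhibitors on the array were higher in liver, with a median difference of -11.70, or -10.95 with genes not detected in colonic mucosa at their bound. ALB, the albumin of plasma, had levels of 2.22 to 4.19 (median 3.57) in colonic mucosa and 18.03 to 18.30 (median 18.22) in liver and was at least 30111-fold higher in liver (adjusted p = 7.54e-16). TTR, the carrier of thyroid hormone, had levels of 0.80 to 1.84 (median 0.96) and 17.74 to 18.07 (median 17.83), at least 37560-fold higher in liver. The 8 liver arrays lay within 1 unit of each other for each of these genes, far above every colon array. GC, the carrier of vitamin D, was at least 17295-fold higher in liver, and AMBP, the precursor of an inhibitor of proteases, was at least 18749-fold higher. HPX, which binds haem, was above background in colonic mucosa too, at 4.86 to 5.80 (median 5.23) against 18.39 to 18.88 (median 18.57) in liver, a difference of -13.30 (95% interval -13.53 to -13.07). SERPINA1, the inhibitor of neutrophil elastase, differed by -10.29, and the smallest difference of the list was -4.60.

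Acute-phase proteins, which rise in plasma with inflammation, followed the same direction, 14 of 15 higher in liver with a median difference of -10.76. FGG, a chain of fibrinogen, had levels of 1.13 to 1.44 (median 1.22) in colonic mucosa and 17.39 to 18.35 (median 17.76) in liver (at least 35592-fold higher in liver). HP, which binds free haemoglobin, had 6.36 to 7.27 (median 6.73) and 19.26 to 19.32 (median 19.26), a difference of -12.52. Its liver levels were among the 3 highest of each liver array, where the scale ends, so the size of that difference is a lower bound. CP, the ferroxidase of plasma, was at least 9629-fold higher in liver and ORM1 was at least 29061-fold higher. The exception was APCS, the serum amyloid P component, with levels of 13.48 to 16.22 (median 15.28) in colonic mucosa and 2.35 to 5.94 (median 5.24) in liver. Its probe was matched by description, and the other probe of the gene was called higher in liver, so the direction of APCS cannot be given.

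The apolipoproteins and the proteins that assemble lipoproteins were higher in liver in 16 of 18 cases, with a median difference of -7.48 (-7.23 with bounds). APOB, the structural protein of very-low-density lipoprotein, had levels of 0.81 to 3.28 (median 2.28) in colonic mucosa and 15.73 to 16.55 (median 16.21) in liver, at least 10553-fold higher in liver. MTTP, which loads lipid onto it, had 1.74 to 7.57 (median 3.86) and 14.26 to 14.67 (median 14.42). The groups of both genes were apart, and the highest colon level of MTTP was in Colon_CS replicate 3, at 7.57. APOC3, an inhibitor of lipoprotein lipase, was at least 22148-fold higher in liver and APOA4 at least 2522-fold higher. APOA1, the main protein of high-density lipoprotein, was well above background on all colon arrays, at 7.11 to 9.37 (median 8.67) against 17.05 to 17.80 (median 17.48), and differed by -9.02 (95% interval -9.58 to -8.47).

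Coagulation and fibrinolysis genes were divided between the tissues. Of 22 genes, 13 were higher in liver, 5 higher in colonic mucosa and 2 equal, with a median difference of -6.04 (-5.85 with bounds, -3.64 with normexp background correction). PLG, the precursor of plasmin, was at least 38029-fold higher in liver, KLKB1, the precursor of plasma kallikrein, at least 2937-fold, and the clotting factor F9 at least 1691-fold. SERPINC1, antithrombin, had levels of 5.63 to 6.30 (median 5.93) in colonic mucosa and 18.27 to 18.45 (median 18.37) in liver, a difference of -12.41. Among the genes higher in colonic mucosa were PLAU and PLAT, the activators of plasminogen, VWF of endothelium and platelets, and F13A1, the A chain of factor XIII. PLAU had levels of 11.47 to 12.80 (median 12.34) in colonic mucosa and 8.71 to 9.37 (median 9.16) in liver and was 8.3-fold higher in colonic mucosa (adjusted p = 4.79e-09). The groups did not overlap for PLAU, PLAT or VWF, and they did for F13A1, which was not called in the RPS arrays alone (difference 1.13).

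Complement showed the same mixture. Of 30 genes 20 were higher in liver, 4 in colonic mucosa and 2 equal, with a median difference of -2.60. C8A, a chain of the membrane attack complex, was at least 12373-fold higher in liver, C8B at least 880-fold and the mannose-binding lectin MBL2 at least 704-fold. C8G had levels of 4.89 to 7.97 (median 6.71) in colonic mucosa and 14.91 to 15.77 (median 15.41) in liver, a difference of -8.76. CFD, the serine protease of the alternative pathway, ran the other way, with 16.14 to 17.30 (median 17.03) in colonic mucosa and 12.25 to 13.16 (median 12.71) in liver, 18.4-fold higher in colonic mucosa. CD46 and CD55, membrane proteins that protect host cells from complement, were 6.94-fold and 5.19-fold higher there. CD55 was highest in the pair of arrays that stood apart, at 11.02 and 11.46 against 8.02 to 9.26 on the other colon arrays, and its difference was 2.38, or 1.73 without them. FCN2 had overlapping groups and was not called with signals scaled to the 75th percentile (0.69) or in the CS arrays alone (0.87). The equal genes were C1QA, a chain of the first component, and C5AR1, the receptor of the C5a fragment.

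Enzymes of foreign compounds were higher in liver in 27 of 34 cases, higher in colonic mucosa in 0 (2 without the pair of arrays that stood apart) and equal in 1, with a median difference of -5.54 (-5.12 with bounds). CYP2E1, the cytochrome that oxidizes ethanol, had levels of 0.91 to 2.15 (median 1.04) in colonic mucosa and 17.48 to 18.03 (median 17.87) in liver, at least 35904-fold higher in liver (adjusted p = 6.59e-18). CYP2C33 was at least 12615-fold higher, SULT2A1, which sulphates steroids and bile acids, at least 12438-fold, and ADH4, an alcohol dehydrogenase, at least 3376-fold. GSTA1, a glutathione transferase, was present in both tissues, at 7.41 to 13.12 (median 11.90) in colonic mucosa and 15.35 to 16.67 (median 16.10) in liver, and differed by -4.88 (95% interval -6.33 to -3.43), or -4.01 without the pair of arrays that stood apart. Every one of these 5 genes had all its liver arrays above all its colon arrays. The equal gene of the list was CYP1A2 by its brighter probe, and its other probe was called higher in liver.

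Bile acid genes divided into those of the liver cell and those of the gut wall. Of 15 genes 11 were higher in liver and 3 in colonic mucosa, with a median difference of -4.35 (-4.32 with bounds, -2.80 with normexp background correction). CYP7A1, the rate-limiting enzyme of bile acid synthesis, had levels of 1.29 to 4.37 (median 3.50) in colonic mucosa and 9.48 to 12.90 (median 11.58) in liver, at least 199-fold higher in liver. SLC10A1, which takes bile acids from blood into the hepatocyte, was at least 3296-fold higher in liver and ABCB11, the pump that exports them into bile, at least 904-fold higher. SLC10A2, the uptake carrier of the intestinal brush border, had 4.24 to 9.58 (median 8.75) in colonic mucosa and 0.78 to 2.01 (median 0.80) in liver and was at least 21.1-fold higher in colonic mucosa. FABP6, the bile acid-binding protein of the enterocyte, had 9.08 to 16.59 (median 12.07) and 3.91 to 5.01 (median 4.68), a difference of 7.65 (95% interval 5.68 to 9.63). It was highest in the pair of arrays that stood apart, with 14.73 in Colon_CS replicate 3 and 16.59 in Colon_RPS replicate 2, and its difference was 6.53 without them. SLC51B, a subunit of the exporter on the basal side, differed by 3.65 with overlapping groups.

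Nitrogen metabolism was also heavier in liver. In the list of the urea cycle and amino acid breakdown, 23 of 30 genes were higher in liver, 1 higher in colonic mucosa and 1 equal, with a median difference of -4.27. The equal gene was HAL by its brightest probe, and 3 of its 4 probes were called higher in liver. CPS1, which starts the urea cycle in mitochondria, had levels of 0.79 to 0.87 (median 0.81) in colonic mucosa and 14.43 to 15.48 (median 15.22) in liver, at least 5336-fold higher in liver. ARG1, the arginase that releases urea, had 0.97 to 5.53 (median 3.06) and 14.12 to 16.13 (median 15.67). For both genes the liver arrays stood far above the colon arrays, and for CPS1 no colon array was well above background. TDO2, which opens the ring of tryptophan, was at least 12851-fold higher in liver, HGD of tyrosine breakdown at least 2281-fold, UROC1 of histidine breakdown at least 3315-fold and AGXT2, an aminotransferase of mitochondria, at least 4930-fold.

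Glucose production and glycogen gave 16 of 18 genes higher in liver, 0 in colonic mucosa and 1 equal, with a median difference of -3.49. G6PC, which releases free glucose, had levels of 1.63 to 3.03 (median 2.72) in colonic mucosa and 10.18 to 11.35 (median 10.67) in liver, at least 223-fold higher in liver. FBP1, which opposes phosphofructokinase, had 10.65 to 12.48 (median 11.77) and 14.53 to 17.00 (median 16.41), a difference of -4.60, and PCK1, the cytosolic step from oxaloacetate, had 11.16 to 15.62 (median 13.54) and 15.69 to 17.29 (median 16.73), a difference of -3.12. The groups did not overlap for any of the 3 genes, though PCK1 was not called in the CS arrays alone (-2.82) and differed by -2.50 without the pair of arrays that stood apart. GCKR, a regulatory protein of glycolysis in the hepatocyte, was at least 40.9-fold higher in liver and PFKFB1, a bifunctional regulator of glycolysis, at least 221-fold higher.

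Enzymes often come in forms that belong to different tissues, and 30 such functions were written down, 17 of them with both forms on the array. The form named for liver was higher in liver in 14 of the 17, and in 10 of those another form was higher in colonic mucosa. In the uptake of glucose, SLC2A2 was at least 278-fold higher in liver and SLC2A1 3.66-fold higher in colonic mucosa. HK1, which phosphorylates glucose in most tissues, had 14.18 to 15.34 (median 14.90) in colonic mucosa against 10.77 to 11.38 (median 11.17) in liver and was 13.2-fold higher in colonic mucosa. The glycogen synthases GYS2 and GYS1 and the glutathione peroxidases GPX1 and GPX2 ran in opposite directions in the same way. GPX2, the peroxidase of gut epithelium, had levels of 12.34 to 14.23 (median 13.76) in colonic mucosa and 4.85 to 5.68 (median 5.08) in liver, a difference of 8.47 (95% interval 7.91 to 9.03), and GPX1, found in most cells, differed by -1.24. The calls of GYS2 and GYS1, at -1.09 and 1.02, were lost with normexp background correction (-0.66 and 0.60), and that of GYS2 in the RPS arrays alone (-0.87). The call of GYS1 was lost in the CS arrays alone (0.98) and, at 0.94 to 0.99, without replicate 3 of Liver_CS, replicate 2 of Liver_RPS, replicate 1 or 2 of Colon_CS or replicate 4 of Colon_RPS.

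Other pairs of forms concerned steroids, water, and gene control. HSD11B1, which makes active cortisol, had levels of 9.47 to 10.58 (median 10.05) in colonic mucosa and 16.19 to 16.86 (median 16.46) in liver and was 86.6-fold higher in liver. HSD11B2, which inactivates cortisol in tissues that respond to aldosterone, had 9.76 to 12.13 (median 11.78) and 3.60 to 6.27 (median 3.99) and was 141-fold higher in colonic mucosa. Neither gene had overlapping groups. AQP9, a channel for water and glycerol, was at least 134-fold higher in liver, and the water channel AQP8 was 42-fold higher in colonic mucosa (difference 5.39, or 6.05 without the pair of arrays that stood apart). The nuclear receptor HNF4A was 4.43-fold higher in liver and its relative HNF4G 10.6-fold higher in colonic mucosa. In 2 functions the form named for liver was higher in colonic mucosa, among them LDHA of lactate dehydrogenase (1.81). PCK1 and PCK2 were both higher in liver. The arginase ARG2 was not called (7.44 to 9.87 (median 8.39) in colonic mucosa, 7.28 to 9.87 (median 9.53) in liver), nor was the transferrin receptor TFRC (4.73 to 6.57 (median 5.16) and 4.87 to 7.10 (median 5.48)), while their liver forms ARG1 and TFR2 were at least 3741-fold and 85.7-fold higher in liver.

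Fat metabolism leaned toward liver. Of 26 genes of fatty acid oxidation and ketogenesis, 16 were higher in liver and 3 in colonic mucosa, with a median difference of -1.66. EHHADH, the bifunctional enzyme of peroxisomes, had levels of 6.03 to 8.06 (median 7.75) in colonic mucosa and 11.24 to 12.07 (median 11.67) in liver, a difference of -4.26. ACSL1, which activates long-chain fatty acids, differed by -3.40 and the reductase DECR1 by -3.49. The genes of the other direction included OXCT1, which lets cells burn ketone bodies, and CD36, a fatty acid translocase (3.45). OXCT1 had 10.72 to 12.19 (median 11.44) in colonic mucosa and 6.89 to 8.05 (median 7.62) in liver and was 15.1-fold higher in colonic mucosa (adjusted p = 8.50e-09).

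The intracellular fatty acid-binding proteins did not follow their names. FABP1, the liver form, had levels of 16.16 to 18.29 (median 17.96) in colonic mucosa and 16.59 to 18.01 (median 17.49) in liver and was called in neither direction (difference 0.24, 95% interval -0.39 to 0.87). Its lowest colon values, 16.16 and 16.75, were in the pair of arrays that stood apart, and without them the difference was 0.63 (adjusted p = 3.88e-03), below the 2-fold limit. FABP5 had 13.27 to 14.24 (median 13.93) and 8.80 to 10.17 (median 9.74) and was 19.8-fold higher in colonic mucosa. FABP4 of fat cells and macrophages differed by 3.00, with overlapping groups and a single high colon array, Colon_CS replicate 4 at 15.16, and was not called in the CS arrays alone (3.45) or with the replicate number as a block (3.00). Of 25 genes of lipogenesis and cholesterol synthesis, 16 were higher in liver and 1 in colonic mucosa (14 and 0 without the pair of arrays that stood apart), with a median difference of -1.43. PNPLA3, a lipid droplet protein, had 3.73 to 6.45 (median 4.37) in colonic mucosa and 8.64 to 13.56 (median 12.31) in liver, a difference of -7.54. MLXIPL, the factor that responds to glucose by turning on lipogenesis, differed by -6.27, and DGAT2, the last step of triglyceride synthesis, by -4.19.

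Growth factor and iron genes included some with a large share of their body supply from liver. Of 17 genes of the growth hormone and IGF axis, 10 were higher in liver, 1 in colonic mucosa and 2 equal, with a median difference of -2.44. GHR, the growth hormone receptor, had levels of 6.33 to 10 (median 7.17) in colonic mucosa and 12.90 to 13.82 (median 13.25) in liver, a difference of -5.98, and IGFBP2, which carries IGFs in plasma, differed by -7.54. IGFBP5 was 3.4-fold higher in colonic mucosa, and the receptors IGF1R and IGF2R were the equal pair. Of 15 iron genes 10 were higher in liver, 0 in colonic mucosa and 1, FTH1, equal, with a median difference of -1.70. TF, the iron carrier of plasma, had 7.64 to 8.10 (median 7.78) and 16.20 to 17.02 (median 16.70), a difference of -8.86 (95% interval -9.10 to -8.63), and HFE2, a co-receptor that controls hepcidin, differed by -7.93. HAMP, hepcidin itself, differed by -7.92 and would have had separate groups but for Liver_RPS replicate 1, which had 8.55 where the other liver arrays had 16.08 to 16.92 and the colon arrays 5.61 to 8.98 (median 7.84). Without that array the difference was -8.94.

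Among 17 transcription factors and nuclear receptors of liver, 11 were higher in liver and 1 in colonic mucosa (2 without the pair of arrays that stood apart), with a median difference of -1.52. ONECUT1 had levels of 1.08 to 2.34 (median 1.83) in colonic mucosa and 12.82 to 13.31 (median 13.15) in liver, at least 1392-fold higher in liver. PROX1 differed by -4.86, the bile acid receptor NR1H4 by -3.31 and PPARA, which turns on fatty acid oxidation, by -3.15. Markers of the liver's own macrophages and vessels were higher in liver in 11 of 13 cases, with a median difference of -3.55 (-3.45 with bounds). CD5L, a protein of Kupffer cells, had 5.86 to 10.03 (median 8.66) and 15.78 to 16.42 (median 16.05), and COLEC10, a collectin, differed by -6.18. OIT3 was at least 359-fold higher in liver. The colon arrays of CD5L lay below all liver arrays and were all above background.

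**Figure D3:**
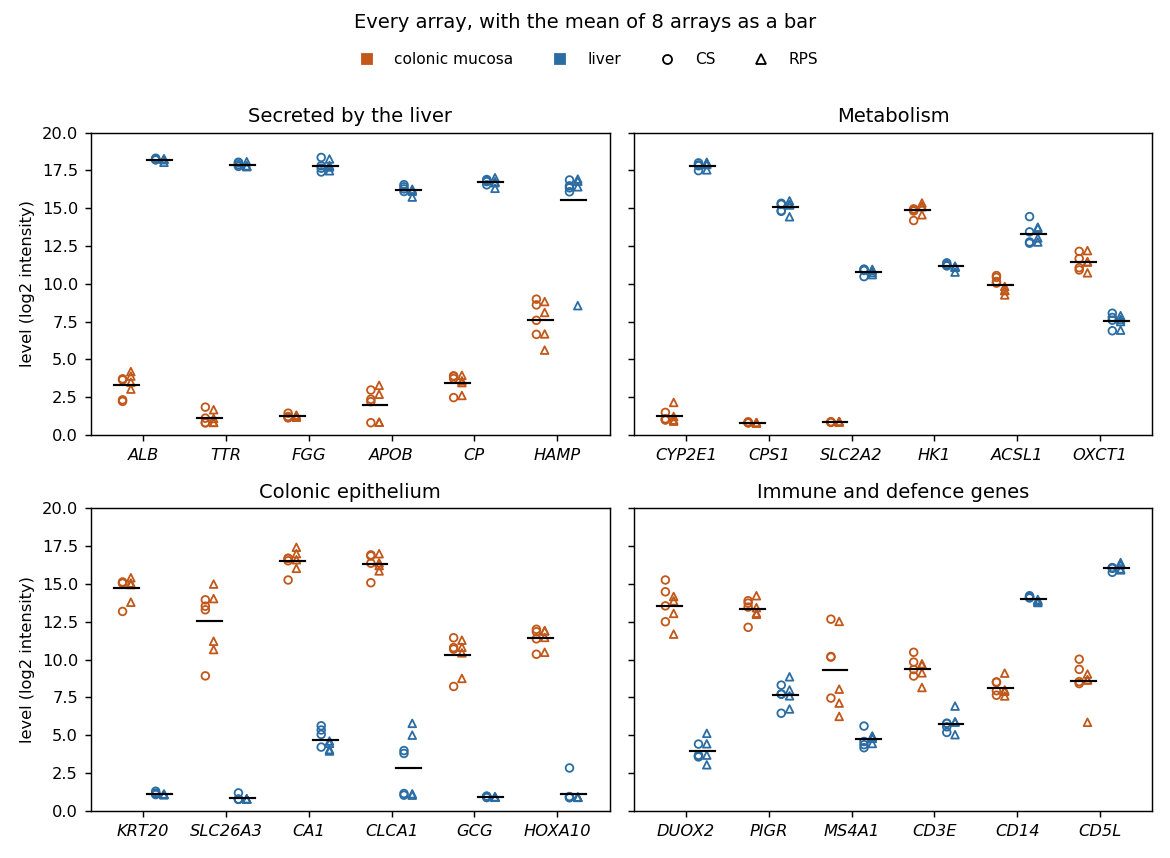
Level (log2 intensity) of single genes on every array, by tissue (colour) and diet (symbol), with the mean of 8 arrays as a bar, for liver secretion, metabolism, colonic epithelium, and immune and defence genes. HAMP has 1 liver array at 8.55 and MS4A1 has 2 colon arrays at 12.53 and 12.68.

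Keratin and brush border genes leaned toward colonic mucosa. KRT20, the keratin of mature intestinal epithelium, had levels of 13.19 to 15.42 (median 15.07) in colonic mucosa and 1.06 to 1.30 (median 1.10) in liver and was at least 2570-fold higher in colonic mucosa (adjusted p = 2.30e-14). Of 15 keratin and brush border genes, 8 were higher in colonic mucosa and 3 in liver, with a median difference of 3.16. LGALS4, a galectin of the brush border, had 16.67 to 18.39 (median 18.11) and 7.70 to 8.69 (median 8.19), a difference of 9.68 (95% interval 9.16 to 10.21). Both genes had all colon arrays above all liver arrays. VIL1, which bundles actin in microvilli, differed by 3.92. MEP1B, a protease of the brush border, was at least 79.4-fold higher and had 3.99 in Colon_CS replicate 3 against 6.05 to 12.49 on the colon arrays outside the pair that stood apart. TSPAN1, a tetraspanin, had 14.45 to 17.03 (median 16.20) and 4.21 to 5.22 (median 4.89) and was 2304-fold higher. Among the genes of the list that were higher in liver were the peptidases ANPEP (-3.27) and DPP4 (-3.63).

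Of 20 adhesion and junction genes, 9 were higher in colonic mucosa, 2 in liver and 2 equal, with a median difference of 0.64, or 10 and 1 called with a median of 1.01 without the pair of arrays that stood apart. EPCAM, the adhesion molecule of simple epithelia, had levels of 13.99 to 16.22 (median 15.87) in colonic mucosa and 6.09 to 9.05 (median 8.13) in liver and was 186-fold higher (adjusted p = 9.12e-10). The claudins CLDN7 and CLDN3 were 57.4-fold and 6.55-fold higher in colonic mucosa, and CLDN15 was 5.5-fold higher in liver. CLDN12 was 2.21-fold higher in liver with overlapping groups, and its call was lost without the pair of arrays that stood apart (-0.92), and in either diet alone (-1.44 in CS and -0.85 in RPS). It was also lost, at -0.99 to -1.08, without replicate 1 or 4 of Liver_CS, replicate 4 of Liver_RPS, replicate 2 or 3 of Colon_CS, or replicate 1 or 2 of Colon_RPS. The equal genes were CTNNB1, beta-catenin, and TJP1, a scaffold of tight junctions.

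Goblet cell genes were higher in colonic mucosa in 11 of 14 cases, higher in liver in 0 and equal in 1, with a median difference of 3.87. CLCA1, secreted with mucus, had levels of 15.09 to 17.01 (median 16.40) in colonic mucosa and 1.04 to 5.79 (median 2.47) in liver, at least 5313-fold higher in colonic mucosa. SPINK4, a small protease inhibitor of goblet cells, had 15.45 to 16.77 (median 16.20) and 4.25 to 7.98 (median 6.95), a difference of 9.69. All colon arrays of both genes exceeded all liver arrays. The membrane mucins MUC4 and MUC1 were at least 112-fold and 23.6-fold higher (difference of MUC1 4.56, or 5.34 without the pair of arrays that stood apart), and SPDEF, the transcription factor of goblet cells, 20.7-fold higher. MUC2, the gel-forming mucin, had 5.11 to 7.45 (median 6.84) against 0.94 to 5.19 (median 4.08), at least 6.04-fold higher, with overlapping groups. MUC13 was equal by its brightest probe, whose values were among the 3 highest on all 16 arrays, where the scale ends, and its 3 other probes were called higher in colonic mucosa.

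Transport of ions and water was higher in colonic mucosa in 20 of 34 genes and in liver in 4, with a median difference of 2.04 (1.98 with bounds), or 2.71 without the pair of arrays that stood apart. SLC26A3, which exchanges chloride for bicarbonate, had levels of 8.93 to 15 (median 13.42) in colonic mucosa and 0.76 to 1.19 (median 0.78) in liver, at least 585-fold higher in colonic mucosa. Its lowest colon values were 8.93 and 10.67, in the pair of arrays that stood apart. CA1, a carbonic anhydrase of colonic epithelium, had 15.27 to 17.43 (median 16.65) and 3.96 to 5.63 (median 4.54), a difference of 11.87 (95% interval 11.28 to 12.45). GUCA2A, guanylin, a peptide that controls salt and water secretion, differed by 9.64, and KCNN4, a calcium-activated potassium channel, was at least 470-fold higher. S100G, which carries calcium through the cell, was at least 318-fold higher, with 5.29 and 8.68 in that pair and 13.09 to 15.47 on the other colon arrays. Higher in liver were the water channels AQP9 and AQP11 (-1.80), the channel BEST2 (-2.95) and KCNMA1. KCNMA1 was well above background on 1 liver array and no colon array, and its call was lost with normexp background correction (-0.13), in the RPS arrays alone (-0.33), without the pair of arrays that stood apart (-1.09), and without Liver_CS replicate 3 (-0.96) or Liver_RPS replicate 4 (-0.91).

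Of 8 short-chain fatty acid genes 2 were higher in colonic mucosa (25.0%) and 1 in liver (12.5%), near the 21.3% and 16.7% of all genes. Their median difference was 0.22, against 0.12 in all genes. It became 0.03 with signals scaled to the 75th percentile and 0.13 with normexp background correction. SLC16A1, which carries butyrate and lactate, had levels of 9.91 to 13.23 (median 12.45) in colonic mucosa and 9.71 to 10.76 (median 10.08) in liver, a difference of 2.02, with overlapping groups, and was not called in the CS arrays alone (1.76). PPARG, a nuclear receptor of fatty acids, had 10.21 to 13.16 (median 12.93) and 5.07 to 7.55 (median 5.37), a difference of 6.71 (95% interval 5.67 to 7.75) with groups apart. BSG, the partner that brings SLC16A1 to the membrane, had a difference of 0.86 below the 2-fold limit, and was called at 1.33 without the pair of arrays that stood apart, at 1.14 without Colon_CS replicate 3 alone and at 1.05 without Colon_RPS replicate 2 alone. The liver call was HCAR1, a lactate receptor, well above background on 1 liver array and no colon array, and it was lost with normexp background correction (-0.13). FFAR2 and SLC16A3 were well above background on no array. HDAC3 and ACSS2 were not called (0.32 and -0.13).

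Hormone genes of the gut lining were higher in colonic mucosa in 10 of 16 cases and in liver in 0, with a median difference of 2.29 (1.53 with bounds). With normexp background correction 6 of them were called and the median was 0.37. SST, somatostatin, had levels of 9.71 to 12.81 (median 12.11) in colonic mucosa and 1.22 to 1.91 (median 1.57) in liver, at least 300-fold higher in colonic mucosa. GCG, which encodes glucagon-like peptides in the gut, had 8.23 to 11.45 (median 10.75) and 0.88 to 0.97 (median 0.92), at least 121-fold higher. No liver array was well above background for either hormone. The granule protein CHGB differed by 6.09 and CPE, which trims prohormones, by 4.06. CHGA, also of granules, was equal by its brightest probe, and 2 other probes of it were called higher in colonic mucosa.

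Transcription factors of the gut and its position along the body were higher in colonic mucosa in 10 of 15 cases, in liver in 1 and equal in 1, with a median difference of 3.41, or 3.98 without the pair of arrays that stood apart. With normexp background correction 8 and 0 were called and the median was 1.65. HOXA10 had levels of 10.36 to 12.01 (median 11.66) in colonic mucosa and 0.87 to 2.84 (median 0.91) in liver, at least 262-fold higher in colonic mucosa. CDX2, which sets intestinal identity, had 6.97 to 9.74 (median 9.27) and 1.07 to 2.95 (median 1.75), at least 47.8-fold higher. Both genes were above background on every colon array and on no liver array. KLF5 of crypt cells was at least 294-fold higher and KLF4 of mature cells 99.7-fold. GATA4, which in the intestine belongs to its upper stretches, was at least 11.3-fold higher in liver, a call that was lost with normexp background correction (-0.98).

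Cell cycle genes were higher in colonic mucosa as a list. Of 20 cell cycle genes 19 were higher in colonic mucosa, 0 in liver and 1, MKI67, equal, with a median difference of 3.01 (2.96 with bounds), or 2.67 without the pair of arrays that stood apart and 1.98 with normexp background correction, under which 16 were called. The mean of the list was highest in that pair, at 10.71 and 10.41 against 8.51 to 9.77 on the other colon arrays, and the part of each cell type in it was not tested. TOP2A, which untangles DNA, had levels of 8.89 to 11.36 (median 9.87) in colonic mucosa and 3.96 to 7.86 (median 5.57) in liver, a difference of 4.31 (95% interval 3.20 to 5.42). CDK1, the kinase that starts mitosis, had 10.22 to 12.07 (median 11.08) and 6.03 to 9.28 (median 7.07), a difference of 3.85. The groups of both genes were apart. CCNB1, its cyclin, differed by 3.94, and CDC20 and PLK1 were at least 17.1-fold and at least 10.4-fold higher. Of the 17 genes of crypts, WNT and Notch, 5 were higher in colonic mucosa (29.4%) and 2 in liver (11.8%), near the 21.3% and 16.7% of all genes. Their median difference was 0.51, or 0.78 with 6 and 1 called without the pair. ASCL2, a factor of crypt stem cells, had 9.67 to 12.10 (median 11.11) and 2.06 to 3.87 (median 2.48), at least 174-fold higher in colonic mucosa, and NOTCH1 was 11.7-fold higher in liver. FRZB, which binds WNT, was 2.63-fold higher in liver, and its call was lost without the pair of arrays that stood apart (-0.97) and in the CS arrays alone (-1.34).

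Genes of mucosal defence were higher in colonic mucosa in 15 of 28 cases and in liver in 6, with a median difference of 1.05. REG4, a lectin secreted by gut epithelium, had levels of 14.02 to 15.53 (median 15.07) in colonic mucosa and 0.84 to 2.39 (median 1.94) in liver, at least 3018-fold higher in colonic mucosa. DUOX2, which makes hydrogen peroxide at the epithelial surface, had 11.69 to 15.27 (median 13.72) and 3.05 to 5.13 (median 3.68), at least 756-fold higher, and its partner DUOXA2 differed by 7.78. All colon arrays of these 3 genes lay above all liver arrays. LYZ, lysozyme, differed by 7.39 and BPI, which kills gram-negative bacteria, was at least 656-fold higher. Higher in liver were PGLYRP2, the peptidoglycan amidase of serum (-4.50, or -5.20 without the pair of arrays that stood apart), IL1RN, the antagonist of interleukin 1 (-2.84), TLR5 and the neutrophil proteins S100A8, S100A9 and S100A12. The calls of TLR5, S100A8, S100A9 and S100A12 were lost with normexp background correction (-0.47, -0.86, -0.39 and -0.66).

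Lymphocyte genes were mostly higher in colonic mucosa, and several were highest in the pair of arrays that stood apart. Of 11 B cell and immunoglobulin genes 8 were higher in colonic mucosa and 1 in liver, with a median difference of 3.97 (3.39 with bounds), or 3.34 without the pair. With normexp background correction 8 and 0 were called and the median was 1.80. MS4A1, the CD20 of B cells, had levels of 6.25 to 12.68 (median 9.11) in colonic mucosa and 4.18 to 5.61 (median 4.69) in liver, a difference of 4.57. Its highest values were 12.68 in Colon_CS replicate 3 and 12.53 in Colon_RPS replicate 2, the other colon arrays had 6.25 to 10.21, and the difference without the pair was 3.48. It was not called in the RPS arrays alone (3.71). CXCL13, the chemokine that draws B cells into follicles, had 9.71 to 15.61 (median 12.50) and 3.88 to 6.88 (median 4.65) and differed by 7.73, or 6.78 without the pair. PIGR, which carries IgA through the epithelium, had 12.14 to 14.23 (median 13.46) and 6.46 to 8.87 (median 7.72), a difference of 5.70 (95% interval 4.92 to 6.48). PAX5 was 2.28-fold higher in liver with overlapping groups, a call lost in either diet alone (-0.92 in CS and -1.45 in RPS) and with normexp background correction (-0.58). The B cell markers given above, MS4A1 and CD79A, are themselves members of this list, and the part of B cell number in the result was not tested.

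T cell and homing genes were higher in colonic mucosa in 23 of 31 cases and in liver in 0, with a median difference of 2.53 (2.26 with bounds). Without the pair of arrays that stood apart the count was 22 and the median 2.12, and with normexp background correction they were 17 and 1.26. CD3E, a chain of the T cell receptor complex, had levels of 8.16 to 10.49 (median 9.49) in colonic mucosa and 5.04 to 6.93 (median 5.79) in liver, a difference of 3.65. GZMA, a granzyme of killer cells, had 7.48 to 11.11 (median 10.55) and 3.70 to 5.92 (median 4.41). Its difference was 5.21, or 5.85 without the pair, where it was lowest (7.48 and 8.06). ICOS, a co-stimulator, differed by 3.94, or 3.32 without the pair, which had 12.23 and 11.89 against 8.96 to 10.31 on the other colon arrays. No group overlapped for the 3 genes. CCL20, which calls lymphocytes to the epithelium, differed by 6.66. Among 27 genes of myeloid cells and antigen presentation 14 were higher in colonic mucosa, 3 in liver and 2 equal, with a median difference of 1.03. SLA-DQB1, a class II chain, was 5.92-fold and the peptide transporter TAP1 6.12-fold higher in colonic mucosa. CD14, the co-receptor for lipopolysaccharide, had 7.60 to 9.11 (median 7.97) and 13.78 to 14.23 (median 14.03), a difference of -5.86 (95% interval -6.27 to -5.44).

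Connective tissue genes leaned toward colonic mucosa with clear exceptions. Of 29 fibroblast and matrix genes 15 were higher in colonic mucosa, 5 in liver and 1 equal, with a median difference of 1.06. THBS1, a thrombospondin, had levels of 10.61 to 12.46 (median 11.24) in colonic mucosa and 6.78 to 9.05 (median 8.28) in liver, a difference of 3.28, and the matrix proteins TNC and VCAN were at least 12.5-fold and at least 12.4-fold higher. FN1, fibronectin, which hepatocytes secrete into plasma, had 12.87 to 14.01 (median 13.56) and 16.36 to 17.26 (median 16.97), a difference of -3.40, and POSTN, periostin, differed by -3.98. MGP, an inhibitor of calcification, had 15.07 and 14.51 in the pair of arrays that stood apart, within the liver range of 13.87 to 15.43 (median 14.74), and 9.18 to 12.78 in the other colon arrays. Its difference was -3.11, or -4.16 without the pair, and it was not called in the CS arrays alone (-2.59).

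Of 17 endothelial genes 8 were higher in liver and 3 in colonic mucosa, with a median difference of -0.95, or 8 and 1 with a median of -0.56 with normexp background correction. The counts were also 8 and 1 without the pair of arrays that stood apart. KDR, the main VEGF receptor, had levels of 6.79 to 8.58 (median 7.93) in colonic mucosa and 10.25 to 11.09 (median 10.76) in liver, a difference of -2.88, and CDH5 of endothelial junctions differed by -2.50. Of 15 smooth muscle genes 3 were higher in colonic mucosa, 2 in liver and 4 equal. The shares higher in each tissue lay near the 21.3% and 16.7% of all genes. The median difference of the list was 0.14, against 0.12 in all genes, and became -0.12 with signals scaled to the 75th percentile. ACTA2, smooth muscle actin, was 3.17-fold higher in colonic mucosa and CALD1, which binds actin, 8.64-fold higher in liver. The brightest probe of DES, desmin, differed by -0.48 and its 3 other probes were called higher in liver. Nerve and glia genes were divided, 3 of 13 higher in each tissue (23.1%), near the shares of all genes, with a median difference of -0.39. The median was -0.10 on signals quantile normalized anew, -0.06 with signals scaled to the 75th percentile and -0.04 with normexp background correction, under which 1 was called in each direction. NEFL, a neurofilament, was at least 12.7-fold higher in colonic mucosa, and CRYAB, a small heat shock protein, was 17.7-fold higher in liver. Of 11 blood cell genes 7 were higher in liver and 2 in colonic mucosa, with a median difference of -1.29, or 3 and 1 with a median of -0.38 with normexp background correction. The haemoglobin chain HBA had 9.47 to 12.95 (median 11.65) in colonic mucosa and 15.46 to 18.60 (median 17.97) in liver, a difference of -6.15.

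Among the written lists of machinery that every cell needs, which leave out the families given below, the proteasome held the largest share of equal genes. Of its 23 genes 11 were equal, or 47.8% against 20.2% of the 4910 genes well above background on all 16 arrays, 5 were higher in colonic mucosa and 0 in liver, with a median difference of 0.20, or 3 and 0 with a median of -0.13 with signals scaled to the 75th percentile. Of those 5, the subunits that interferon induces, PSMB9, PSMB8 and PSMB10, had the largest differences, at 2.99, 2.56 and 2.55, with groups apart. PSMB9 had levels of 14.42 to 15.63 (median 15.24) in colonic mucosa and 11.32 to 13.30 (median 12.14) in liver. The other 2, PSME2 (1.22) and PSMA6 (1.14), were not called with signals scaled to the 75th percentile (0.81 and 0.67). PSMA6 was also not called in the RPS arrays alone (0.98). Of 49 cytosolic ribosomal proteins 9 were equal (18.4%), 3 higher in colonic mucosa and 1 in liver, and the median of 0.60 fell to 0.14 with that scaling, under which 0 were called. Without the pair of arrays that stood apart 1 was called in each direction. Of 31 genes of the respiratory chain and ATP synthase 3 were equal (10% of the 30 above background), 5 higher in colonic mucosa and 1 in liver, with a median of 0.59, or 2 and 1 with a median of 0.23 with that scaling. The counts were 8 and 1 without the pair of arrays that stood apart. CYCS, cytochrome c, had 13.25 to 15.14 (median 14.41) and 11.78 to 12.23 (median 11.95), a difference of 2.35. Of 29 lysosomal genes 5 were equal (17.2%), 7 higher in liver and 3 in colonic mucosa, with a median of -0.13, or -0.22 with that scaling and -0.06 without the pair. Beside the counts of these lists, 21.3% of all genes were higher in colonic mucosa and 16.7% in liver.

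Genes often used as references were not all alike in the tissues. Of 24, 5 were equal (20.8%, SDHA, EEF1A1 and IPO8 among them), near the 20.2% of the 4910 genes well above background on all 16 arrays. Higher in colonic mucosa were 6 (25.0%) and in liver 3 (12.5%), against 21.3% and 16.7% of all genes, with a median difference of 0.48. With signals scaled to the 75th percentile they were 4 and 4 with a median of 0.05. YWHAZ had levels of 12.76 to 13.79 (median 13.24) in colonic mucosa and 9.63 to 10.24 (median 10.03) in liver and was 9.4-fold higher in colonic mucosa. HPRT1 had 10 to 11.45 (median 10.49) and 13.03 to 13.53 (median 13.36) and was 6.69-fold higher in liver. The groups of both were apart. TUBA1B, a tubulin, differed by 2.18 and the chaperone HSPA8 by 1.62.

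The 15 equal genes with intervals closest to 0 were MUC13, USP16, ZNF3, KDM2A, XRN2, SLC30A7, ITGB3, ANKRD17, USP8, LEPROT, ZFX, WDR11, FTH1, CHGA and LIN28A. USP16, which removes ubiquitin from histone, had levels of 10.09 to 10.43 (median 10.33) in colonic mucosa and 10.14 to 10.41 (median 10.30) in liver, a 95% interval of -0.15 to 0.15. XRN2, a nuclear exonuclease, had 11.49 to 12.06 (median 11.72) and 11.63 to 11.90 (median 11.72), an interval of -0.17 to 0.17, and SLC30A7, a zinc carrier, had 11.63 to 12.03 (median 11.83) and 11.48 to 12.14 (median 11.85), an interval of -0.17 to 0.17. The levels of each gene in the tissues overlapped. FTH1, the heavy chain of ferritin, was equal at a very high level, 18.30 to 18.75 (median 18.65) and 18.46 to 18.63 (median 18.53), near the top of the scale. ITGB3, an integrin chain, also lay near the top (18.88 to 19.14 (median 19.06) and 18.88 to 19.06 (median 18.98)), among the 3 highest values on 1 array. Its values, like those of MUC13, leave little room to differ upward. Each gene is read by 1 chosen probe, and 472 of the 990 equal genes had no other. Of 518 equal genes with more than 1 probe, 195 were equal by every probe, and 38, MUC13 and CHGA among them, had another probe that was called. Calls of a difference held more often, with 948 of 1338 called by every probe in the same direction and 15 with another probe called the other way.

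**Figure D4:**
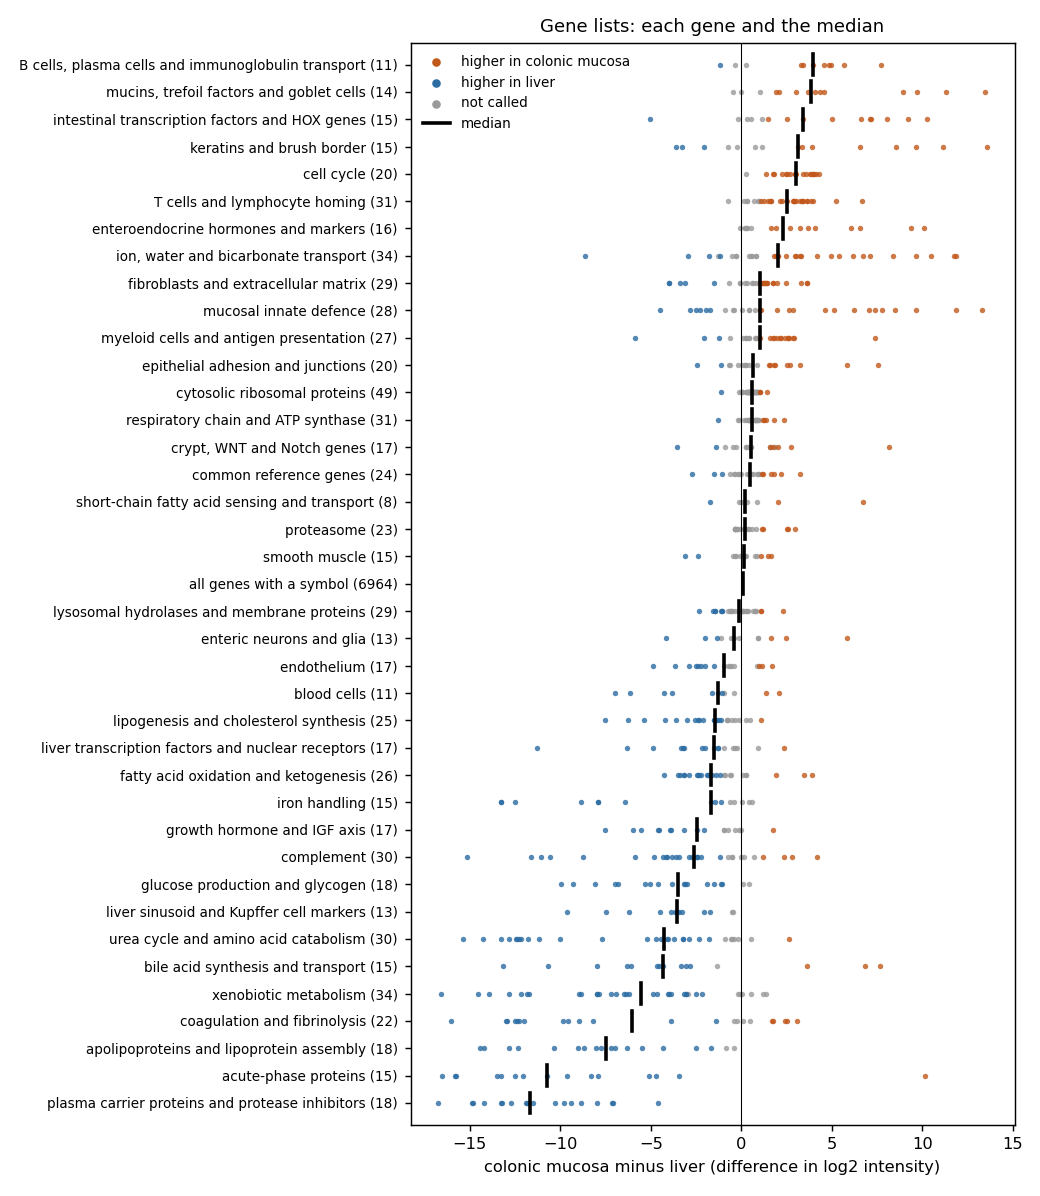
Difference in log2 intensity (colonic mucosa minus liver) of each gene of 38 lists, 1 point per gene coloured by call, with the median of each list as a bar and the number of genes in brackets. Medians run from -11.70 in plasma carriers to 3.97 in B cell genes (3.34 without the pair of colon arrays that stood apart, when goblet cell genes had 4.31) against 0.12 in all genes. That of smooth muscle changes sign (0.14 to -0.12) and so does that of the proteasome (0.20 to -0.13) when signals are scaled to the 75th percentile.

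All 14 lists written for liver had a median below 0, and 14 of the 15 written for colonic mucosa had a median above 0, the exception being nerve and glia genes, whose median lay near 0 under other normalizations. The lists were chosen with earlier results of these data known, so these signs are not independent evidence. By limma's interaction test 1 of 43603 probes (0.00229%) passed an adjusted p under 0.05 and 0 of 6964 genes with a symbol did, while 2048 probes and 323 genes had an unadjusted p under 0.05. With 4 arrays in a group this does not show that the other differences were the same in both diets. The count of probes was 0 with signals scaled to the 75th percentile, with normexp background correction and among probes well above background, 13 without the pair of colon arrays that stood apart, and 1 to 6 with single arrays left out. The probe was CK450611, which has no gene symbol and passed background on no array. It had levels of 2.81 to 3.15 on the Liver_RPS arrays and 0.85 to 0.93 on all the others.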

How the data were processed

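Per the file headers the arrays were read with Feature Extraction 10.7, whose background-subtracted intensity is not normalized between arrays. The authors made the log2 values by quantile normalization in GeneSpring and deposited them, and these values were used as deposited. The distribution of the values was nearly the same on all 16 arrays. From there, limma 3.58.1 in R 4.3.3 fitted the 4 group means, with Python 3.11.15, pandas 2.3.3, NumPy 2.4.6, SciPy 1.17.1 and Matplotlib 3.10.9 for the rest. "Well above background" is the scanner software's own mark for a spot. Names came from the files and, for LOC numbers, accessions and older names, from the RefSeq annotation of Sscrofa11.1. Of 43603 probes 14366 got a symbol (6964 genes), 44 of them by description alone. A gene is its probe with the highest mean over the 16 arrays. The genes chosen are the 15 with the largest difference in each direction, up to 6 of each list by size with each list's exceptions and markers, the 15 equal genes nearest to 0 and all paired forms, 326 in all, some of which are not reported here. Equal list members outside this rule, the arrays' oddities and the families below were named after their values were seen. The members and lists were chosen with earlier results of these data known. Alternatives used other normalizations (signals quantile normalized anew, scaled to the 75th percentile, or corrected by normexp), a filter on background, other tests, blocks and thresholds, 1 diet alone, and arrays left out.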

Additional observations from a re-analysis of the deposited data

Results flagged for a closer look

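The levels of 316 chosen genes were looked at within the 8 arrays of a tissue wherever they could be read, 496 groups in all, for an array far from the others. The measure is the gap of the most extreme array to its neighbour as a share of the whole range, and 33 groups passed the limit of Dixon's test. Chance alone marks about 1 in 20 groups. Of the 33, 27 were in liver and 6 in colonic mucosa, and Liver_RPS replicate 3 and Liver_RPS replicate 4 were the array concerned in 8 and 6 of them. The measure can miss a pair of arrays that stand apart together, as in colonic mucosa, so these counts do not compare the tissues.

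The widest gap was that of HAMP, hepcidin, which was low in Liver_RPS replicate 1 (0.900), at 8.55 against 16.08 to 16.92 on the other liver arrays. The gap of MUC13 in that array (0.641) was a step between the highest ranks, 19.14 against 19.26 to 19.32, where the scale ends, and shows no low level. Liver_RPS replicate 3 was high for the proteasome activators PSME2 (0.794) and PSME1 (0.632). It was low for ALB (0.574), F9 (0.642), EPCAM (0.654), HDAC3 (0.587), FBP1 (0.655) and PFKM (0.742).

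Liver_RPS replicate 4 was high for the lymphocyte genes CD3E (0.555), CD3D (0.532) and PTPRC (0.600) and for CHGB (0.664). The same array was low for FABP6 (0.609) and UCHL1 (0.527). Liver_RPS replicate 2 was high for PPARG (0.751) and HSD11B2 (0.586) and low for ORM1 (0.580), LECT2 (0.593) and ADH4 (0.697).

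Among the liver arrays of CS pigs, replicate 3 was low for SULT2A1 (0.607), PFKFB1 (0.629) and PNPLA3 (0.580), replicate 1 was high for FRZB (0.639) and LYZ (0.558), and replicate 2 was low for PKM2 (0.639). In colonic mucosa, Colon_CS replicate 4 was high for PNPLA3 (0.685), GHR (0.695) and KLF15 (0.532), all 3 higher in liver as a tissue. Colon_RPS replicate 1 was low for FABP5 (0.653), Colon_RPS replicate 3 was low for CD5L (0.614) and Colon_RPS replicate 4 for CTSF (0.573).

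By limma's interaction test the tissue difference of the probe CK450611 was 0.01 in CS pigs and -2.09 in RPS pigs, a difference between the diets of -2.10 (SE 0.12, adjusted p = 4.41e-06). On no array did this probe pass the background mark.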

How the results depend on the processing

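No probe's call changed to the opposite direction in any alternative fit of probes, while with probes averaged by gene 3 genes did, APCS and NDRG1 among them. The counts of probes in colonic mucosa and liver were 6928 and 5846. They stayed within 1.5 times these values except with normexp background correction or a 4-fold threshold. With normexp background correction they were 3367 and 2986, and 10205 probes were equal. This correction added a constant of 50 to every signal, and the part of that constant in the counts was not tested. With a 4-fold threshold they were 2954 and 2999. With the thresholds met in each diet separately they were 5251 and 4776, and 1927 probes were equal. Equal probes numbered 3248 in the CS arrays alone, 2771 in the RPS arrays alone and 11774 with a 2-fold limit, against 5176. The probes with an interaction numbered 0 with signals scaled to the 75th percentile, 0 with normexp background correction, 0 after the filter on background, and 13 without the pair of colon arrays that stood apart, an alternative chosen after seeing the data. With each array left out in turn the counts were 6814 to 7022 in colonic mucosa, 5789 to 5895 in liver, 4758 to 5481 equal and 1 to 6 with an interaction. The 1 became 4 without Liver_CS replicate 3, 2 without Liver_CS replicate 4, 6 without Liver_RPS replicate 4, 2 without Colon_CS replicate 3 and 5 without Colon_RPS replicate 2. The causes were not tested. Scaling to the 75th percentile gave 6998 and 5896, the filter on background 5822 and 4888, the methods' t-test with Benjamini-Hochberg adjustment 6887 and 5814, and slide as a random block 7030 and 5896. Of the 29 lists written for a tissue, 28 had the sign of that tissue, or 27 with scaling to the 75th percentile and with probes averaged by gene. As the lists were chosen with earlier results known, these counts show only how the signs depend on the processing. Normexp background correction moved 16 of 38 list medians by 0.5 or more, the filter on background 6, the pair of arrays left out 3 and probes averaged by gene 2. Of the 326 chosen genes 31 lost their call with normexp. The replicate block gave 6907 in colonic mucosa, 5852 in liver, 5182 equal and 1 with an interaction, and ended 1 named call, FABP4. The labels do not say that equal numbers mark 1 animal. Arrays of equal number deviated together in CS pigs (correlations across probes of 0.159 to 0.33, each array best with its own number in 8 of 8) and not in RPS pigs (-0.072 to 0.071, 1 of 8), so the numbers were not taken as a pairing. One limit of these results is signal over background: 533 genes were well above it on no array, and for dim genes the size of a difference is a bound.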

Other observations

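Gene families grouped by their symbols, chosen after the data were seen, show where else the tissues part and where they are alike. Of 33 cytochromes P450, 21 were higher in liver, 0 in colonic mucosa and 4 equal, with a median difference of -6.09 (-4.68 with undetected genes at their bound, -3.74 with normexp background correction). Of 18 serpins 11 were higher in liver and 5 in colonic mucosa (median -3.48). The 164 solute carriers were spread over both tissues, 36 higher in colonic mucosa, 47 in liver and 18 equal, with a median of -0.14, or -0.22 with signals scaled to the 75th percentile and -0.04 with normexp background correction. Claudins were spread as well, 3 of 20 higher in colonic mucosa and 5 in liver. Of 9 HOX genes 6 were higher in colonic mucosa and 0 in liver, with a median of 3.04 (2.44 with bounds), which was 0.76 with normexp background correction. Of 12 S100 proteins 8 were higher in colonic mucosa and 3 in liver. Of 25 chemokines 12 were higher in colonic mucosa and 5 in liver, of 12 chemokine receptors 6 and 1, of 30 interleukins 11 and 2, and of 24 collagens 10 and 1. With normexp background correction these counts were 7 and 0 for S100 proteins, 11 and 3 for chemokines, 5 and 0 for their receptors, 5 and 1 for interleukins and 5 and 0 for collagens, and serpins had 9 in liver and 3 in colonic mucosa. Among all 6964 genes 1482 (21.3%) and 1166 (16.7%) were called, or 956 and 788 with that correction.

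Some families of basic regulation held a larger share of equal genes than all genes did, each taken over the genes well above background on all 16 arrays. Of 19 mitochondrial ribosomal proteins 11 were equal (57.9%), 1 was higher in liver and 0 in colonic mucosa, with a median of -0.09, which was -0.35 with signals scaled to the 75th percentile. Of 51 zinc finger proteins 25 were equal (49.0%), and of 27 RAB GTPases, which direct vesicles, 10 (37.0%), against 20.2% of all 4910 such genes. Ubiquitin-specific peptidases, with 5 of 17 equal, eukaryotic initiation factors, with 3 of 21, and heat shock proteins, with 5 of 30, lay nearer to that share. Of 19 ubiquitin-specific peptidases 5 were higher in colonic mucosa (26.3%) and 0 in liver, or 3 and 0 with that scaling and without the pair of colon arrays that stood apart. Heat shock proteins were higher in liver in 5 of 35 cases (14.3%) and in colonic mucosa in 3 (8.57%), or 9 and 3 with signals scaled to the 75th percentile. Of all 6964 genes 16.7% were higher in liver and 21.3% in colonic mucosa. With that scaling these were 1207 and 1417 genes.

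Some genes varied widely within a tissue. In liver, ISG15, which interferon induces, had 16.47 in Liver_RPS replicate 3 and 14.10 in Liver_RPS replicate 4 and 10.90 to 12.71 on the other liver arrays, and CXCL9, a chemokine for T cells, had 10.79 and 12.92 against 7.18 to 8.28. OAS1 had 13.13 in Liver_RPS replicate 3 and 6.63 to 11.04 on the other liver arrays. CD207 of Langerhans cells had 10.56 in Liver_CS replicate 2 and 4.04 to 5.67 in the other liver arrays.

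In colonic mucosa ARL11 had 17.94 in Colon_CS replicate 1 and 6.65 to 8.57 on the other colon arrays and CCSER2 had 16.93 in Colon_RPS replicate 4 against 7.26 to 7.76. Each of these genes was high on 1 array only. The pair of colon arrays that stood apart shared high levels of several genes. VPREB3 and FCRLA, both of B cells, had 15.88 and 12.19 in Colon_CS replicate 3 and 15.52 and 11.76 in Colon_RPS replicate 2, against 9.01 to 13.72 and 5.31 to 9.75 on the other colon arrays. CHI3L1, a chitinase-like protein, had 12.27 and 12.80 against 6.84 to 9.61.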
